A study of Arabidopsis thaliana with 12 samples.

Results

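Dry seeds of the KD genotype were compared with dry seeds of wild type (WT) on Affymetrix ATH1 arrays, which read each transcript with a set of short oligonucleotides called a probe set. The comparison used the 4 arrays titled as dry seed, 2 of KD and 2 of WT, out of 12 arrays in all; the other 8 hold seeds of the same genotypes at 14 and 16 days after flowering (14DAF and 16DAF). Both genotypes were of the Wassilewskija (WS) ecotype, were grown in a greenhouse under long days, and for both each RNA extraction pooled a large number of seeds. The dry seeds were collected once desiccation had ended and were kept cold. The series describes KD as altered in lysine metabolism, and its labels do not spell the name out. The reference given for KD (Zhu and Galili) is to plants that combined loss of LKR/SDH with a bacterial dihydrodipicolinate synthase; which of these changes the KD seeds carry, and what drives any transgene in them, is not stated by the labels.

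Lysine is made from aspartate in plastids, on a branch that starts with dihydrodipicolinate synthase and shares its precursors with threonine and methionine. LKR/SDH is a single protein with lysine-ketoglutarate reductase and saccharopine dehydrogenase activities, and it carries out the first steps of lysine breakdown. A dry seed is metabolically quiet, and the transcripts measured in it are those stored when the embryo dried, which are present before germination starts.

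The source name of KD dry replicate 1 gives WT, against its title, description and genotype label, and that of WT 16DAF replicate 1 gives KD in the same way; the titles were followed. For all 12 arrays, the most similar array was the second one of the same titled group. In dry seeds the replicates correlated at 0.993 in KD and at 0.993 in WT, and KD with WT arrays at 0.976 to 0.982. The signal of 3′ minus 5′ control probe sets, a measure of RNA integrity, averaged 3.40 ± 0.10 (log2, SD, n = 2) in KD and 3.35 ± 0.13 in WT dry seeds. Defining transcripts of a seed were at high signal: PAP85, a storage vicilin, had 13.97 and 14.21 in KD and 14.23 and 14.40 in WT. Markers of tissue outside the seed were low in all 4 dry arrays, with signals of 2.35 to 3.57 for the 2 silique wall and funiculus genes (ALC and ADPG1). Markers of 2 parts of the seed were also examined. The 1 endosperm gene (AGL62) had 2.90 to 3.30, which does not measure how much endosperm was present. Of 4 seed coat genes 1 (ARA12) was above 5, at 9.18 to 9.45. None of these 7 markers passed the test of KD against WT, and their differences lay between -0.10 and 0.09.

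KD dry seeds differed from WT dry seeds at 1800 of 22746 probe sets at an adjusted p of 0.05 (limma, Benjamini-Hochberg over all probe sets), which is 7.91% of those tested. Of these, 912 (4.01%) were higher in KD and 888 (3.9%) were lower. Here and below, rose, fell, increase and decrease compare KD with WT, not one stage with another. The signals of the 2 KD and the 2 WT arrays were free of overlap for all 1800. The calls were made on these same arrays, so this separation, here and for called genes below, is no separate support. How often it occurs among all probe sets is not given here. The median difference was 0.97 among the higher and -0.90 among the lower, on the log2 scale, and -0.01 over all probe sets. Differences above 2 on the log2 scale were more numerous among the higher (73) than differences below -2 among the lower (25). Without KD dry replicate 1, whose labels conflict, 508 were higher and 365 lower, and without both arrays of conflicting labels 693 and 554. Without KD dry replicate 2 these counts were 322 and 290, without WT dry replicate 1 they were 515 and 411, and without WT dry replicate 2 they were 368 and 308. Whether the 2 repeats of a group come from different plants or harvests is not stated, and the p-values therefore rest on a spread between arrays that may be technical. In bulk seed RNA, fewer cells of a type and less RNA per cell cannot be told apart.

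**Figure D1:**
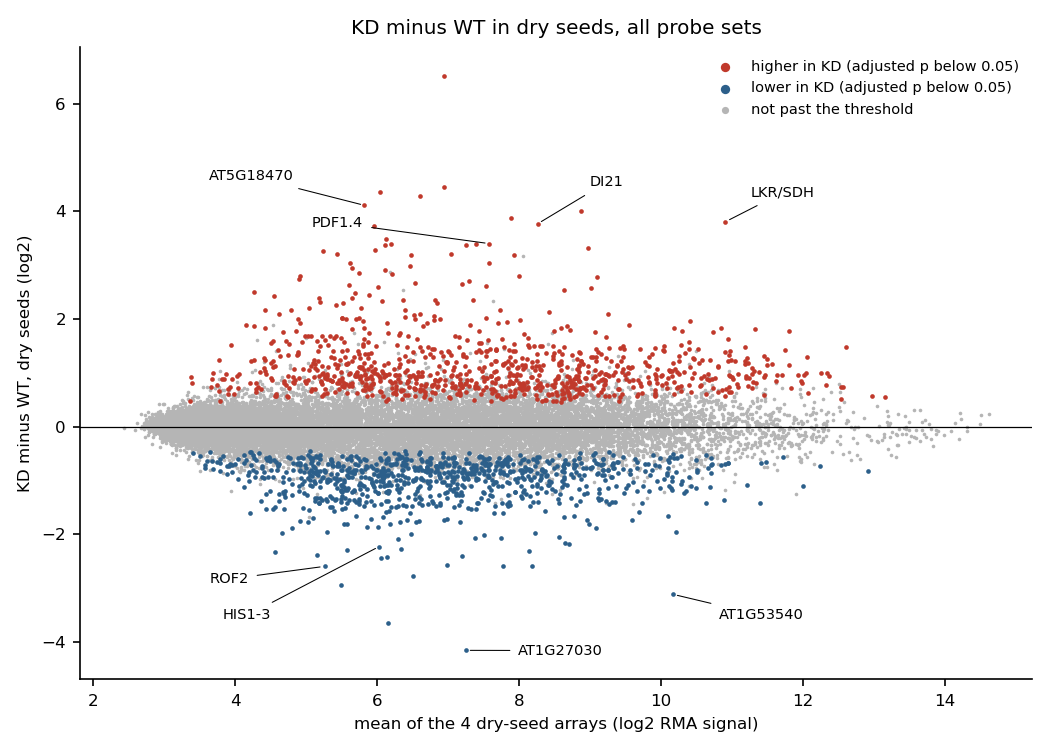
Difference between KD and WT dry seeds (log2, vertical) against the mean signal of the 4 dry arrays (log2, horizontal), 1 point per probe set, for 22746 probe sets. The 912 higher and 888 lower calls are spread over most of the range of signal, and the labelled genes lie at the edges of the cloud.

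LKR/SDH (AT4G33150), the lysine-degrading enzyme, was among the largest increases. Its signal was 12.83 and 12.80 (log2) in KD dry seeds, against 8.87 and 9.15 in WT dry seeds. The KD arrays stood together far above both WT arrays, a 14.0-fold difference (3.81 ± 0.267 log2, SE, adjusted p = 7.37e-05, limma). The place of the probes within the transcript, relative to any insertion, was not analysed here, so this signal does not check the genotype. The difference was 2.98 at 16DAF and 3.24 at 14DAF, and neither departed detectably from that in dry seeds (adjusted p = 0.379 and 0.508 for the differences between stages).

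The list of aspartate family and lysine genes held 36 loci, for which 7 probe sets naming 1 gene were measured. Of these 7 members 3 rose and none fell, against 4.01% higher and 3.9% lower among all probe sets. The median difference was 0.36. The other two that rose work in the parts of the pathway that lysine synthesis shares or competes with. HMT-1, a homocysteine methyltransferase that makes methionine, had 5.90 and 6.54 in KD and 4.46 and 4.71 in WT (1.64 ± 0.427, adjusted p = 0.0436). AT1G14810, for aspartate-semialdehyde dehydrogenase, which makes the last precursor common to lysine, threonine and methionine, had 9.68 and 9.66 in KD and 8.78 and 8.51 in WT (1.02 ± 0.232, adjusted p = 0.0243). For both genes the 2 KD arrays lay above the 2 WT arrays. MGL, a methionine gamma-lyase that degrades methionine, had 9.57 and 10.11 in KD and 9.57 and 9.39 in WT, which overlap. Leaving out any 1 of the 4 dry arrays left LKR/SDH alone past the threshold: the adjusted p of HMT-1 was then 0.0805 to 0.287 and that of AT1G14810 was 0.0627 to 0.172.

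Breakdown of other amino acids was represented by 17 probe sets, of which 4 (23.5%) rose and none fell, against 4.01% higher and 3.9% lower among all probe sets, with a median of 0.10. IVD, isovaleryl-CoA dehydrogenase of leucine breakdown, had 9.07 and 8.79 in KD and 7.78 and 7.38 in WT (1.35 ± 0.258, adjusted p = 0.011). MCCB, the beta subunit of methylcrotonyl-CoA carboxylase, which acts after IVD on the leucine route, had 10.03 and 9.69 in KD and 8.72 and 8.43 in WT (1.28 ± 0.275, adjusted p = 0.0189). ETFBETA, a subunit of the electron transfer flavoprotein that takes electrons from IVD, had 8.41 and 8.44 in KD and 7.79 and 7.18 in WT (0.94 ± 0.221, adjusted p = 0.029). For all 3 genes both KD arrays were above both WT arrays. ETFQO, which passes these electrons on to ubiquinone, had 7.49 and 7.49 in KD and 6.72 and 6.93 in WT (0.67 ± 0.163, adjusted p = 0.0337). Other members of the same routes did not pass. ETFALPHA, the partner subunit of ETFBETA, had 7.36 and 7.18 in KD and 7.43 and 7.48 in WT (adjusted p = 0.652). MCCA, the partner subunit of MCCB, had 8.95 and 8.84 in KD and 8.62 and 8.97 in WT (adjusted p = 0.84), and AT2G26800, for the lyase that ends the leucine route, differed by 0.16 (adjusted p = 0.751). These 3 genes are named after their values were seen. AT5G09300, also on this list, had 4.47 and 4.94 in KD and 5.32 and 5.84 in WT (adjusted p = 0.055).

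The calls on this list rested on the full set of arrays: 0 of the 17 passed without KD dry replicate 1, 1 without KD dry replicate 2, 2 without WT dry replicate 1 and 0 without WT dry replicate 2. At 16DAF 1 of the 17 was higher in KD (ETFBETA, by 1.06, adjusted p = 0.0128) and 3 were lower. Among all probe sets 5.22% were higher and 5.88% lower at that stage. The differences of IVD and MCCB in dry seeds departed from those at 14DAF. IVD differed by 0.25 at 16DAF and by -0.93 at 14DAF, and MCCB by 0.40 and -0.63. Against 14DAF the dry-seed difference was larger by 2.28 ± 0.365 for IVD (adjusted p = 0.0135) and by 1.92 ± 0.389 for MCCB (adjusted p = 0.0326). Against 16DAF neither departure was past the threshold (adjusted p = 0.204 for IVD and 0.352 for MCCB).

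In the tricarboxylic acid (TCA) cycle list, 4 of 20 probe sets (20.0%) rose and 1 (5.0%) fell, against 4.01% and 3.9% of all probe sets, and the median was 0.25. SDH2-1, the iron-sulfur subunit of succinate dehydrogenase, which also belongs to the respiratory chain, had 8.44 and 8.63 in KD and 6.57 and 6.48 in WT by one probe set. The KD arrays were 4.03-fold above the WT arrays (2.01 ± 0.160, adjusted p = 0.000123). A second probe set named for SDH2-1 stayed near the floor of the arrays, at 3.20 and 3.31 in KD and 3.37 and 3.26 in WT, and did not show this difference. AT3G55410 and AT4G26910, for the E1 and E2 subunits of 2-oxoglutarate dehydrogenase, rose by 0.79 ± 0.174 and 0.86 ± 0.212 (adjusted p = 0.0214 and 0.0339). AT5G08300, for the alpha subunit of succinyl-CoA ligase, had 9.04 and 8.98 in KD and 8.41 and 8.01 in WT (0.80 ± 0.197, adjusted p = 0.0345). Other genes for the same enzymes, named after their values were seen, did not pass. For 2-oxoglutarate dehydrogenase, AT5G65750 (E1) differed by -0.22 and AT5G55070 (E2) by 0.28 (adjusted p = 0.644 and 0.447). For succinyl-CoA ligase, AT5G23250 differed by 0.23 and AT2G20420 by 0.39 (adjusted p = 0.696 and 0.187). For succinate dehydrogenase, SDH1-1 differed by 0.47, SDH2-2 by 0.31 and SDH1-2 by 0.09 (adjusted p = 0.0761, 0.713 and 0.802). The share that fell was near that of all probe sets. The 1 member in it, AT1G54220, a dihydrolipoyl acetyltransferase of the pyruvate dehydrogenase complex, had 4.55 and 4.36 in KD and 5.18 and 4.88 in WT (-0.57 ± 0.150, adjusted p = 0.0433). MAB1, the E1 beta subunit of that complex, had 9.96 and 9.75 in KD and 10.50 and 10.37 in WT (adjusted p = 0.088). Without KD dry replicate 1 and without WT dry replicate 1, 2 members of the list rose each time; without KD dry replicate 2 and without WT dry replicate 2, 1 rose; and AT1G54220 did not pass in any of these. SDH2-1 passed in all of them.

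Most of the measured probe sets for cytosolic ribosomal proteins rose. Ribosomal proteins build the small (40S) and large (60S) subunits that translate stored mRNA when a seed germinates. Of 130 probe sets measured, 78 were higher in KD dry seeds and 0 lower, against 4.01% and 3.9% of all probe sets, and the median difference was 0.88. The list was compiled by locus after the dry-seed values had been seen. It held 30 of 48 probe sets higher for the 40S subunit (median 0.92) and 48 of 82 for the 60S subunit (median 0.86). The median signal over the 130 probe sets was 9.75 and 9.89 on the KD arrays and 8.97 and 8.70 on the WT arrays, so that the KD medians lay above both WT medians. Most of the increases were in strongly expressed members: of 105 members with a mean above 7 (log2) over the 12 arrays, 73 rose, while among all 6588 probe sets above that level 7.8% rose.

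**Figure D2:**
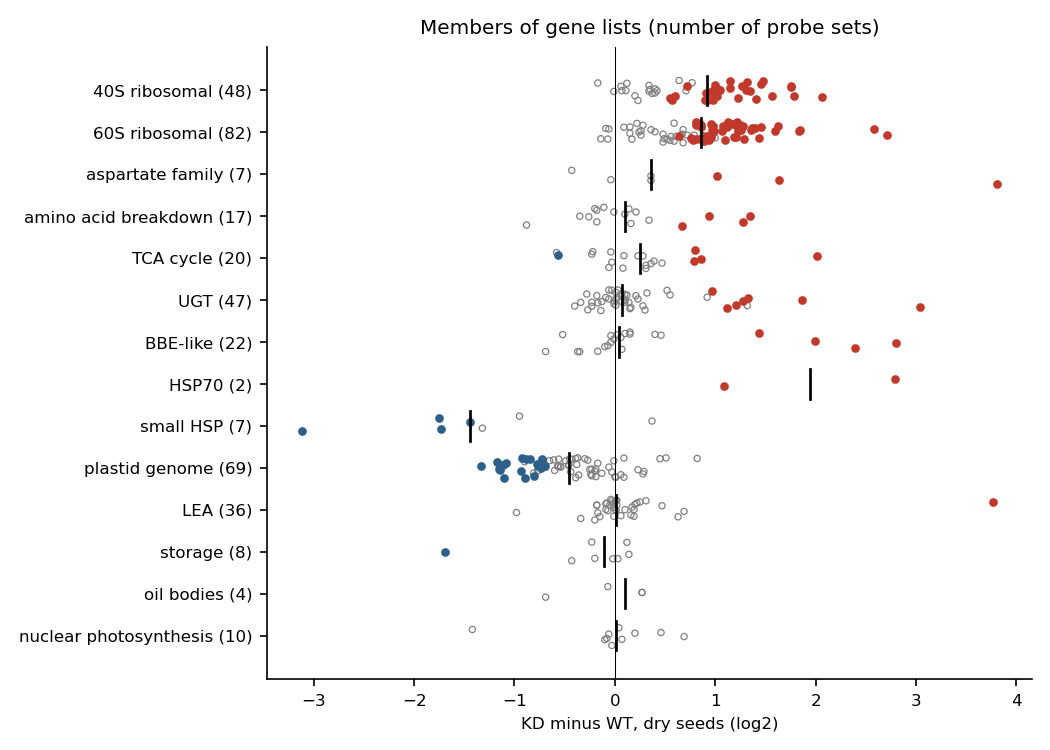
Difference between KD and WT dry seeds (log2) for each probe set of 14 gene lists, with the number of probe sets in brackets. Filled red points passed the test as higher in KD, filled blue points as lower, open points did not pass, and the bar is the list's median. The medians of the 2 ribosomal lists (0.92 and 0.86) lie to the right of 0 and those of the small heat shock protein and plastid genome lists (-1.44 and -0.46) to the left, and each of these lists has open points on the other side of 0. The LEA list has a median of 0.01, with DI21 far to the right.

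Members of the ribosomal set differed in size. AT5G22440, of the 60S list, had 8.67 and 8.63 in KD and 6.28 and 5.59 in WT (2.71 ± 0.284, adjusted p = 0.000525). AT3G13580, also 60S, had 10.21 and 10.38 in KD and 7.82 and 7.62 in WT (2.58 ± 0.133, adjusted p = 2.06e-05). These are increases of 6.57-fold and 5.96-fold, well above the median of their list. AT5G28060, of the 40S list, had 7.81 and 7.84 in KD and 6.27 and 5.27 in WT (2.06 ± 0.293, adjusted p = 0.0025). AT3G57490, also 40S, rose by 1.79 ± 0.254 (adjusted p = 0.00242). AT3G24830 and AT2G37190, of the 60S list, rose by 1.84 ± 0.266 and 1.83 ± 0.256 (adjusted p = 0.00261 and 0.00225). The KD arrays were above the WT arrays for each of these 6 genes. Several ribosomal proteins are encoded by near-identical gene copies, and probes of one copy may read another.

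The ribosomal difference was not particular to dry seeds. At 16DAF 106 of the 130 probe sets were higher in KD and 0 lower, with a median of 1.23 (5.22% of all probe sets were higher and 5.88% lower at that stage). At 14DAF 51 were higher and 1 lower, with a median of 0.64 (3.35% of all probe sets higher and 3.92% lower). The dry-seed difference departed from that at 16DAF at 3 of the 130 probe sets and from that at 14DAF at 7, against 1.38% and 2.77% of all probe sets. AT3G13580 was one of these, with a larger difference in dry seeds than at 16DAF (by 0.94, adjusted p = 0.0427) and than at 14DAF (by 2.12, adjusted p = 0.00115). The count of 78 depended on single arrays more than the median did. It was 49 without KD dry replicate 1, 33 without KD dry replicate 2, 63 without WT dry replicate 1 and 37 without WT dry replicate 2, while the median stayed between 0.76 and 1.0.

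Heat shock genes went both ways: of 9 measured, 2 rose (22.2%) and 4 fell (44.4%), against 4.01% higher and 3.9% lower among all probe sets. The median was -1.32. Small heat shock proteins, which bind unfolding proteins and are made in maturing seeds as well as under heat, had 4 of 7 measured members lower and none higher, with a median of -1.44, against 3.9% of all probe sets lower. AT1G53540, a cytosolic small heat shock protein gene, had 8.81 and 8.42 in KD and 11.57 and 11.89 in WT, an 8.66-fold difference (-3.12 ± 0.425, adjusted p = 0.00203). ATHSP22.0, an endoplasmic reticulum member, had 3.99 and 4.1 in KD and 6.09 and 5.50 in WT (-1.75 ± 0.210, adjusted p = 0.00102). In both, every KD array lay below every WT array. AT1G52560 had 8.73 and 8.72 in KD and 10.65 and 10.26 in WT (-1.73 ± 0.419, adjusted p = 0.0323). AT5G37670 had 8.60 and 8.50 in KD and 10.01 and 9.97 in WT (-1.44 ± 0.388, adjusted p = 0.0496). Of the members that did not pass, AT1G54050 differed by -1.32 (adjusted p = 0.195), AT2G29500 by -0.95 (adjusted p = 0.0671) and AT5G51440, named here after its values were seen, by 0.37 (adjusted p = 0.35). With any 1 dry array left out, 2 of the 7 passed, AT1G53540 and ATHSP22.0. The split of the fixed heat shock list into small proteins and HSP70 was made after the values had been seen.

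HSP70 genes code for ATP-driven chaperones. The 2 measured, of 5 loci listed, were both higher in KD, against 4.01% of all probe sets. AT3G09440 had 9.16 and 9.63 in KD and 6.63 and 6.57 in WT, a 6.94-fold difference (2.79 ± 0.219, adjusted p = 0.000117). Hsp70-2 had 6.05 and 5.91 in KD and 5.01 and 4.76 in WT (1.09 ± 0.156, adjusted p = 0.00246). Both KD arrays were above both WT arrays for each, and both genes passed with any 1 dry array left out. ROF2, a heat-inducible peptidyl-prolyl isomerase of the FKBP family that is on no list, had 4.03 and 3.89 in KD and 6.71 and 6.40 in WT (-2.60 ± 0.334, adjusted p = 0.00145). Of the 2 genes measured for folding in the endoplasmic reticulum, AT5G07340, a calnexin, had 8.33 and 7.81 in KD and 9.61 and 9.45 in WT (-1.46 ± 0.209, adjusted p = 0.00253). The other, CRT1b, a calreticulin, had 5.67 and 5.42 in KD and 6.69 and 6.24 in WT and did not pass (adjusted p = 0.108).

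The HSP70 differences were larger in dry seeds than at either earlier stage. AT3G09440 differed by 0.43 at 16DAF and 0.41 at 14DAF, and the dry-seed difference was larger than these by 2.37 and 2.38 (adjusted p = 0.00828 and 0.00506). Hsp70-2 differed by -0.22 and -0.06 at those stages, and the dry-seed difference was larger by 1.31 and 1.15 (adjusted p = 0.0217 and 0.0264). From 16DAF to dry seeds the mean of Hsp70-2 went from 6.24 to 5.98 in KD and from 6.46 to 4.88 in WT. That of AT3G09440 went from 8.01 to 9.39 in KD and from 7.58 to 6.6 in WT. The small heat shock genes were close between the genotypes at 14DAF (median -0.07). At 16DAF 3 of the 7 were lower in KD, against 5.88% of all probe sets, and the median was -1.16. Against 14DAF the dry-seed difference of AT1G53540 was further down by -3.04 (adjusted p = 0.0292) and that of ATHSP22.0 by -1.36 (adjusted p = 0.0412). Against 16DAF 0 of the 7 departed past the threshold (adjusted p = 0.285 for AT1G53540 and 0.0618 for ATHSP22.0), and 1.38% of all probe sets did.

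**Figure D3:**
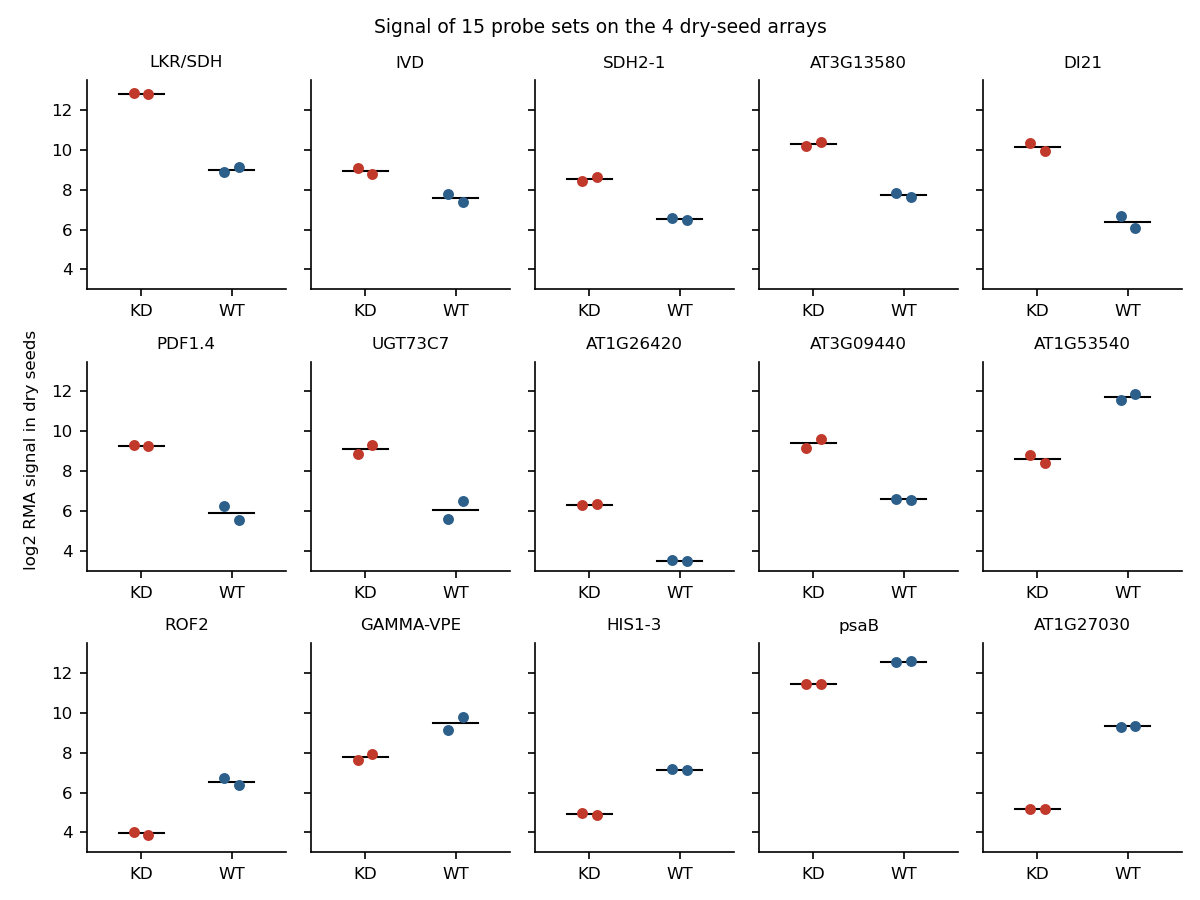
Signal (log2) of 15 probe sets on the 2 KD and the 2 WT dry arrays, with 1 point per array and a bar at the group mean. All 15 were chosen among probe sets called on these arrays, so the separation of KD from WT points follows from the choice. KD points lie above the WT points from LKR/SDH to AT3G09440 and below them from AT1G53540 to AT1G27030.

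Of 69 probe sets for transcripts of the plastid genome, 19 (27.5%) fell in KD dry seeds and 0 rose, against 3.9% lower among all probe sets. The other 50 did not pass. The median was -0.46, and 10 of the 69 had a difference above 0, the highest at 0.82. The list was taken from the chromosome field of the gene table after the values had been seen. The RNA was amplified before hybridisation, and how evenly this copies plastid transcripts was not tested. Their signal may therefore not follow their amount. The median signal over the 69 was 8.03 and 7.83 on the KD arrays and 8.82 and 8.65 on the WT arrays, without overlap. The 5 described next were among the members that differed most, and they code for photosystem subunits and for plastid ribosomal proteins. psaB, for a core protein of photosystem I, had 11.45 and 11.45 in KD and 12.54 and 12.58 in WT (-1.11 ± 0.122, adjusted p = 0.000657). rps19, for a protein of the small plastid ribosomal subunit, had 10.04 and 9.83 in KD and 11.17 and 10.97 in WT (-1.14 ± 0.168, adjusted p = 0.00296). Both genes were lower on every KD array, by just over 2-fold. rpl32, for a large-subunit protein, differed most, at 8.59 and 8.29 in KD and 10.07 and 9.48 in WT (-1.33 ± 0.296, adjusted p = 0.0223). rps15, of the small subunit, and psbJ, of photosystem II, were lower as well, with differences of -1.17 ± 0.265 and -1.15 ± 0.284 (adjusted p = 0.0251 and 0.0351).

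Before drying, 5 of the 69 were lower and 1 higher at 16DAF (median 0.12), and 1 was lower and 0 higher at 14DAF (median -0.03). Among all probe sets 5.88% were lower and 5.22% higher at 16DAF, and 3.92% lower and 3.35% higher at 14DAF. The share of the 69 that was lower at 16DAF was thus near that of all probe sets. The test of the difference between stages passed for 2 of the 69 against 16DAF, among them psbJ (-2.13, adjusted p = 0.0353), and for 3 against 14DAF, among them psaB (-0.78, adjusted p = 0.0453) and rps15 (-1.64, adjusted p = 0.0496). These counts are close to the shares over all probe sets, 1.38% against 16DAF and 2.77% against 14DAF. Fewer members passed with an array left out: 6 without KD dry replicate 1, 6 without KD dry replicate 2, 6 without WT dry replicate 1 and 9 without WT dry replicate 2. psaB and rps19 passed in each case, and the median lay between -0.70 and -0.32. The nuclear photosynthesis genes gave no call among 10 measured (median 0.01). LHCB4.1, an antenna protein of photosystem II, had 8.80 and 8.23 in KD and 10.03 and 9.84 in WT (-1.42 ± 0.620, adjusted p = 0.229). With limma on the 4 dry arrays alone, 1 of the 10 rose and 1 fell, and LHCB4.1 passed as lower (adjusted p = 0.0038).

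Genes of seed reserves and desiccation tolerance mostly did not pass. Of 36 late embryogenesis abundant (LEA) genes, which code for proteins that protect drying cells, 1 rose and none fell (2.78% higher, near the 4.01% of all probe sets), with a median of 0.01. That gene, DI21, a drought-induced LEA gene, had 10.34 and 9.96 in KD and 6.70 and 6.06 in WT, a 13.6-fold difference (3.77 ± 0.306, adjusted p = 0.000136). AT3G02480, another LEA gene, had 11.56 and 11.94 in KD and 10.89 and 11.35 in WT (0.63, adjusted p = 0.138). The DI21 difference was 2.54 at 16DAF and 1.12 at 14DAF, and it was larger in dry seeds than at 14DAF by 2.65 (adjusted p = 0.0147). Neither the 4 oil body genes nor the 4 genes of reserve mobilisation passed: OLEO3, an oleosin, had 9.75 and 10.39 in KD and 10.50 and 11.01 in WT (adjusted p = 0.15), and ICL, the isocitrate lyase of the glyoxylate cycle, had 13.12 and 13.33 in KD and 13.17 and 13.11 in WT. Among 8 genes of storage proteins and their processing, 1 fell, against 3.9% of all probe sets. It was GAMMA-VPE, a vacuolar processing enzyme, with 7.65 and 7.92 in KD and 9.15 and 9.79 in WT (-1.69 ± 0.250, adjusted p = 0.00299). GR1, a glutathione reductase, rose by 0.56 ± 0.134 (adjusted p = 0.0296), and did not pass with any 1 dry array left out (adjusted p = 0.0801 to 0.205). No member passed among 7 genes of fatty acid and oil synthesis, 3 seed regulators and 3 genes of abscisic acid and gibberellin. The same held for 4 genes of chlorophyll and 3 of other amino acid synthesis. It also held for the 6 WRKY and 14 bZIP factors found by the start of their symbol. The 1 NAC factor found in that way, NAC014, differed by -0.74 (adjusted p = 0.0132). Factors named only by a locus code were not counted.

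The largest increases with a gene symbol included PDF1.4, ChiC and a pair of beta-glucosidase genes. PDF1.4, of the defensin family of small antimicrobial peptides, had 9.31 and 9.25 in KD and 6.24 and 5.53 in WT, a 10.5-fold difference (3.40 ± 0.234, adjusted p = 6.51e-05). ChiC, a class V chitinase, had 7.48 and 7.61 in KD and 5.11 and 5.28 in WT (2.35 ± 0.206, adjusted p = 0.000198). Both were clear of the WT arrays. BGLU46 and BGLU45, adjacent genes for beta-glucosidases of the monolignol glucoside type, rose by 2.09 ± 0.217 and 1.83 ± 0.468 (adjusted p = 0.000509 and 0.0399). BGLU46 had 5.65 and 5.69 in KD and 3.33 and 3.83 in WT. BGLU45 did not pass with any 1 dry array left out (adjusted p = 0.113 to 0.236).

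UDP-glycosyltransferases, which attach sugars to hormones, phenolics and other small molecules, had 7 of 47 members higher (14.9%, against 4.01% of all probe sets) and 0 lower, with a median of 0.07. UGT73C7 had 8.87 and 9.32 in KD and 5.62 and 6.50 in WT (3.04 ± 0.470, adjusted p = 0.00373). UGT84A3, which glucosylates hydroxycinnamic acids, had 9.60 and 9.60 in KD and 8.08 and 7.39 in WT (1.86 ± 0.231, adjusted p = 0.0012). UGT76B1, which glucosylates isoleucic and salicylic acid, had 9.68 and 9.14 in KD and 7.99 and 8.17 in WT (1.33 ± 0.206, adjusted p = 0.00373). In all 3 the KD arrays lay above the WT arrays, while 40 of the 47 members did not pass. UGT73C1 had 4.97 and 5.11 in KD and 3.70 and 3.82 in WT (1.28 ± 0.143, adjusted p = 0.000708). The number of members higher was 5 to 7 with any 1 dry array left out. Of 24 cytochrome P450 probe sets 1 rose (CYP71B22, by 0.78), a share of 4.17%, near the 4.01% of all probe sets. Of 13 glutathione transferase probe sets none passed. These lists and that of the UDP-glycosyltransferases were taken by the start of the symbol, so members named only by a locus code are missing.

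Berberine bridge enzyme-like oxidases, a family whose members oxidise indole compounds, cell wall sugars and monolignols, had 4 of 22 members higher (18.2%, against 4.01% of all probe sets) and 0 lower, with a median of 0.04; the list was added after the values had been seen. Of the 4, 3 lie within a short run of neighbouring genes, in which 2 other measured members, named after their values were seen, did not pass: AT1G26390 differed by -0.37 (adjusted p = 0.2) and AT1G26400 by -0.35 (adjusted p = 0.633). AT1G26420 had 6.28 and 6.36 in KD and 3.56 and 3.48 in WT (2.80 ± 0.216, adjusted p = 0.000117). AT1G26380 had 6.47 and 6.29 in KD and 3.94 and 4.04 in WT (2.39 ± 0.284, adjusted p = 0.000989). AT1G26410 had 6.01 and 5.76 in KD and 3.95 and 3.84 in WT (1.99 ± 0.181, adjusted p = 0.000223). All 3 were near the floor of the arrays in WT and clearly above it in KD, and since these neighbours are similar in sequence their probes may share signal. AT4G20830, on another chromosome, rose by 1.44 ± 0.363 (adjusted p = 0.0383), and did not pass with any 1 dry array left out (adjusted p = 0.0631 to 0.263).

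Several of these increases were larger in dry seeds than before drying. PDF1.4 differed by 0.25 at 16DAF and 0.12 at 14DAF, less than in dry seeds by 3.15 and 3.27 (adjusted p = 0.00383 and 0.002). BGLU46 differed by 0.09 at 16DAF and was lower in KD at 14DAF (-1.17, adjusted p = 0.0112), so that the difference in dry seeds was larger by 2.00 and 3.26 (adjusted p = 0.0152 and 0.00165). AT1G26420 differed by 0.74 and -0.07, and the dry-seed difference was larger by 2.06 and 2.88 (adjusted p = 0.013 and 0.00238). ChiC differed by 0.60 at 16DAF and by 1.36 at 14DAF, where it passed; only the departure from 16DAF was past the threshold (1.75, adjusted p = 0.0213).

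EXGT-A3, a xyloglucan endotransglucosylase that cuts and rejoins wall polymers, had 8.85 and 8.77 in KD and 6.81 and 6.49 in WT (2.16 ± 0.193, adjusted p = 0.000221). KINESIN-12B, a motor of the phragmoplast that builds the new wall between daughter cells, had 6.36 and 6.33 in KD and 4.08 and 3.98 in WT (2.31 ± 0.138, adjusted p = 2.79e-05). Neither gene differed before drying beyond 0.23 (log2), and both dry-seed differences exceeded those at 16DAF, by 2.11 and 2.08 (adjusted p = 0.00793 and 0.00217). From 16DAF to dry seeds the mean of EXGT-A3 went from 8.82 to 8.81 in KD and from 8.77 to 6.65 in WT. That of KINESIN-12B went from 3.79 to 6.35 in KD and from 3.56 to 4.03 in WT. The list of cell wall loosening genes was taken by the start of the symbol, which left out EXGT-A3. Of its 27 members 1 passed (3.7% lower, near the 3.9% of all probe sets). This was EXPA8, an expansin, with 5.95 and 5.46 in KD and 6.83 and 6.91 in WT (-1.17 ± 0.167, adjusted p = 0.00253). TUB7, a beta-tubulin, had 4.62 and 4.85 in KD and 5.88 and 6.66 in WT (-1.53 ± 0.268, adjusted p = 0.00685), and its adjusted p was 0.0561 without KD dry replicate 1 and 0.0575 without WT dry replicate 2.

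Among the other decreases, AT1G27030 was the largest with a gene name, with 5.16 and 5.19 in KD and 9.31 and 9.35 in WT, a 17.8-fold difference (-4.16 ± 0.251, adjusted p = 2.79e-05). HIS1-3, a linker histone induced by drought, had 4.96 and 4.88 in KD and 7.17 and 7.12 in WT (-2.23 ± 0.302, adjusted p = 0.002). AT4G21323 and its neighbour SBT3.12, a subtilisin-type protease, were both lower, with differences of -2.77 ± 0.250 and -1.81 ± 0.215 (adjusted p = 0.000223 and 0.000979). SBT3.12 had 5.04 and 5.50 in KD and 6.89 and 7.28 in WT, so each gene of the pair was lower on both KD arrays. scpl26, a serine carboxypeptidase-like gene, had 5.31 and 5.17 in KD and 7.0 and 6.84 in WT (-1.68 ± 0.200, adjusted p = 0.00101). AT1G63190 had 4.15 and 3.88 in KD and 6.96 and 6.97 in WT (-2.95 ± 0.161, adjusted p = 2.06e-05).

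The largest increases with a gene name included loci for which no function is given here. AT5G18470 had 7.82 and 7.93 in KD and 3.89 and 3.64 in WT, a 17.3-fold difference (4.11 ± 0.388, adjusted p = 0.000278). AT1G73490 had 9.81 and 9.86 in KD and 5.92 and 5.98 in WT (3.88 ± 0.203, adjusted p = 2.06e-05). AT1G17960 had 7.83 and 8.31 in KD and 4.49 and 5.27 in WT (3.19 ± 0.388, adjusted p = 0.00112). The KD arrays of these genes were above the WT arrays by more than the spread within either genotype. AT5G19120 rose by 2.99 ± 0.223 (adjusted p = 9.79e-05). The largest increase of all came from a probe set with no gene in the tables used, with 10.14 and 10.25 in KD and 3.50 and 3.85 in WT (6.52 ± 0.780, adjusted p = 0.00102). The tables listed no gene for 768 of the 1800 probe sets called, and these are not named here.

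The dry-seed differences were partly those seen earlier in development. These stages share no arrays with the dry comparison, but they share its variance estimate. Of the 912 probe sets higher in KD dry seeds, 410 (45.0%) were also higher at 16DAF, which is 34.5% of the 1188 higher there (5.22% of all), and 8 were lower. At 14DAF 215 of the 912 (23.6%) were higher, 28.2% of the 763 higher there (3.35% of all), and 28 were lower. Of the 888 lower in dry seeds, 319 (35.9%) were lower at 16DAF, 23.9% of the 1337 lower there (5.88% of all), and 151 (17.0%) were lower at 14DAF, 16.9% of 891 (3.92% of all). Those going the opposite way numbered 13 and 9. Over all 22746 probe sets the dry-seed differences correlated at 0.489 with those at 16DAF and at 0.282 with those at 14DAF, as a description across probe sets, which are not independent replicates.

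The difference between stages was itself tested. The KD minus WT difference in dry seeds departed from that at 16DAF at 313 probe sets (1.38%), of which 174 (0.765%) went upward and 139 (0.611%) downward. It departed from that at 14DAF at 631 (2.77%), of which 358 (1.57%) went upward and 273 (1.2%) downward. Of the 1800 probe sets called in dry seeds, 189 (10.5%) departed from 16DAF and 373 (20.7%) from 14DAF. The calls and these tests share the dry arrays, so shares above those of all probe sets follow in part from the choice. The counts of 313 and 631 depended on single arrays. Against 16DAF the count was 72 to 110 with any 1 dry array or any 1 KD 16DAF array left out, 272 without WT 16DAF replicate 1 and 425 without WT 16DAF replicate 2. Against 14DAF it was 175 to 241 with any 1 dry array, any 1 KD 14DAF array or WT 14DAF replicate 2 left out, and 781 without WT 14DAF replicate 1. Without both arrays whose source names conflict, the counts were 69 and 356.

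**Figure D4:**
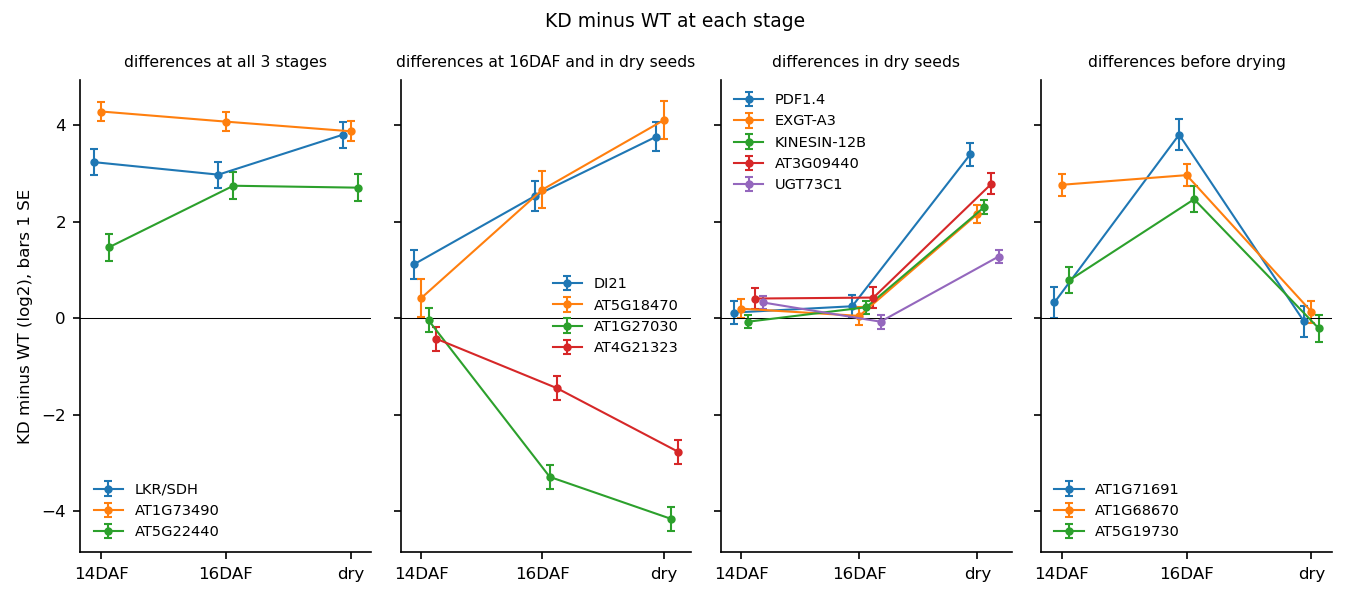
KD minus WT difference (log2) of 15 genes at the 3 stages in time order, with bars of 1 standard error of the model, the same at each stage. LKR/SDH, AT1G73490 and AT5G22440 are above 0 at all 3 stages, the second panel moves away from 0 with time, the third departs from 0 in dry seeds, and the fourth returns to 0 in dry seeds.

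AT1G73490 showed nearly the same difference throughout, with 4.29, 4.08 and 3.88 from 14DAF to the dry seed. AT1G27030 was the other extreme, with -0.04, -3.29 and -4.16 over the same stages, and it departed from 14DAF by -4.12 (adjusted p = 0.00115). AT5G18470 did the same upward, with 0.42, 2.67 and 4.11, a departure from 14DAF of 3.69 (adjusted p = 0.00921). HIS1-3 and AT4G21323 also departed from 14DAF, by -2.26 and -2.35 (adjusted p = 0.0248 and 0.00975).

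Some genes differed before drying and not in dry seeds. AT1G71691 had a difference of 3.81 at 16DAF, while in dry seeds its signal was 4.94 and 5.23 in KD and 4.84 and 5.45 in WT, which overlap (departure -3.88, adjusted p = 0.00523). AT1G68670 differed by 2.97 at 16DAF and by 2.77 at 14DAF; in dry seeds it had 8.48 and 8.52 in KD and 8.65 and 8.08 in WT (departures -2.83 and -2.64, adjusted p = 0.00457 and 0.00396). AT5G19730 differed by 2.47 at 16DAF and by -0.21 in dry seeds (departure -2.68, adjusted p = 0.0123). AT5G15950, for S-adenosylmethionine decarboxylase, an enzyme of polyamine synthesis, changed sides: it was higher in KD at 16DAF by 2.17 and lower in dry seeds, with 5.15 and 5.99 in KD and 6.63 and 6.90 in WT (-1.20 ± 0.257, adjusted p = 0.0194; departure -3.36, adjusted p = 0.00389). Its dry-seed adjusted p was 0.111 without KD dry replicate 1, 0.0574 without WT dry replicate 1 and 0.143 without WT dry replicate 2. AT3G53040, a LEA gene, was higher in KD at 14DAF by 3.54, and in dry seeds it was near the top of the signal range in both genotypes, at 13.78 and 13.84 in KD and 13.33 and 13.67 in WT (departure -3.23, adjusted p = 0.00364).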

How the data were processed

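Excised or dry seeds were hybridised to ATH1 arrays, per the labels' protocols, after RNA amplification by the 2-cycle Affymetrix method. The range of the deposited values shows a log2 scale. Per the submitters' processing notes the authors used RMA and Partek; no versions were given there. RMA aligns the distributions of arrays, so a shift of all transcripts would not show. The number of arrays limits the precision.

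Of 22810 probe sets, 64 controls were removed. The platform annotation names 1 gene for 13513 (59.4%), several for 503 and none for 8730; 13484 of the first were matched to the TAIR10.1 gene table. Models with 6 group means over all 12 arrays were fitted to the log2 values (limma 3.58.1, R 4.3.3, eBayes, no trend, 6 residual and 4.16 prior degrees of freedom). Two-sided p-values were adjusted with the Benjamini-Hochberg method across 22746 probe sets, with a threshold of 0.05. Errors of differences are model standard errors. The fit was tested on simulated data. Alternatives changed normalization, variance model, filter, replicate block and arrays used.

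Named genes were LKR/SDH, the 15 largest changes each way among called probe sets naming 1 gene without overlap of KD and WT dry arrays, the 10 largest with a symbol, up to 6 members of each list, and the 5 largest differences between stages; the text reports part of them. "Largest" refers to probe sets naming 1 gene unless stated. Of 34 lists fixed by locus or symbol, 27 had a measured member; 15 of these gave no call. A list is described by its counts and median. Only probe sets naming 1 gene counted as measured, so a list covers part of its loci. The 36 loci of the aspartate family gave 7 probe sets, and the 25 of heat shock gave 9. The 55 of photosynthesis gave 10, and the 31 of abscisic acid and gibberellin gave 3. The remaining loci may still be read by probe sets with no gene in the annotation. A symbol other than the locus code was given for 1551 of the 13484 matched probe sets. Lists taken by the start of the symbol therefore hold only part of their families. Members and lists were chosen with earlier results of these data known. Plots used Python 3.11.15, pandas 2.3.3 and matplotlib 3.10.9.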

Additional observations from a re-analysis of the deposited data

Results flagged for a closer look

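Each result below was singled out because the difference between KD and WT in dry seeds departed from that at an earlier stage, at an adjusted p of 0.05 (limma interaction contrast, 2 arrays per group). Probe sets of this kind numbered 313 against 16DAF and 631 against 14DAF. All values are log2 differences of differences, and a positive one means a larger KD minus WT difference in dry seeds.

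Among genes higher in KD dry seeds, the departure from 16DAF was 3.15 for PDF1.4, 2.37 for AT3G09440, 2.11 for EXGT-A3, 2.08 for KINESIN-12B, 2.06 for AT1G26420 and 2.00 for BGLU46. It was 1.75 for ChiC, 1.45 for AT1G26410, 1.35 for UGT73C1, 1.31 for Hsp70-2 and 0.94 for AT3G13580. The departure from 14DAF was 3.69 for AT5G18470, 3.27 for PDF1.4, 3.26 for BGLU46, 2.92 for UGT73C7, 2.88 for AT1G26420, 2.65 for DI21 and 2.44 for SDH2-1. It was 2.39 for KINESIN-12B, 2.38 for AT3G09440, 2.28 for IVD, 2.27 for AT1G26380, 2.12 for AT3G13580, 1.97 for EXGT-A3 and 1.92 for MCCB. It was 1.77 for AT1G26410, 1.46 for AT5G19120, 1.15 for Hsp70-2 and 0.95 for UGT73C1.

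Among genes lower in KD dry seeds, the departure from 16DAF was -3.36 for AT5G15950, -2.31 for scpl26 and -2.13 for psbJ. The departure from 14DAF was -4.12 for AT1G27030, -3.04 for AT1G53540, -2.35 for AT4G21323, -2.33 for AT5G15950, -2.26 for HIS1-3 and -1.78 for SBT3.12. It was -1.64 for rps15, -1.37 for AT1G63190, -1.36 for ATHSP22.0, -1.13 for EXPA8 and -0.78 for psaB.

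Among genes that did not differ past the threshold in dry seeds, the departure from 16DAF was -3.88 for AT1G71691, -2.83 for AT1G68670 and -2.68 for AT5G19730. The departure from 14DAF was -3.23 for AT3G53040 and -2.64 for AT1G68670.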

How the results depend on the processing

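The count of 1800 probe sets in dry seeds lay between 1247 and 2534 under the alternatives other than leaving out 1 array, highest with the 4 dry arrays alone. It was 612 to 926 with 1 dry array left out, where fewer arrays enter the comparison. With arrays centred on their medians 55.6% of calls were higher, against 50.7%. The count against 16DAF was 313 and ranged from 72 to 425 with 1 array left out; that against 14DAF was 631 and ranged from 175 to 781. With the replicate block the counts were 1436 in dry seeds, 164 against 16DAF and 384 against 14DAF. The labels do not say what a replicate number marks, and the deviations of same-numbered dry arrays correlated at 0.17 (0.42 at 16DAF and -0.21 at 14DAF), so the samples were not treated as paired. Without both arrays of conflicting source names the counts were 69 against 16DAF and 356 against 14DAF. Of 61 probe sets called in dry seeds and named in the text, 41 passed under all 12 alternatives that gave a value, 4 were lost with the block and 16 to 19 with 1 dry array left out; none changed direction. Some genes of the text that did not pass in the main fit passed with limma on the 4 dry arrays alone. They were LHCB4.1, AT2G29500, CRT1b, AT5G09300 and MAB1 (adjusted p = 0.0038, 0.00638, 0.0177, 0.0393 and 0.0468), all lower in KD. No detection calls were used, so the size of a difference against a dim signal is uncertain.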
